A study of Mus musculus with 9 samples.

Results

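The genes described here are interferon response genes, a list of 39 mouse genes whose transcription is raised by interferons or that carry and limit the interferon signal. A probe set, the group of oligonucleotides that measures 1 transcript on an Affymetrix array, was taken as a member where its single gene symbol in the array's annotation was on the list. By that rule 31 of the 39 genes were measured, by 37 of the 12422 probe sets that are not controls; the array measured 8251 genes in all. Tgtp1, Oasl2, Ifi203, Stat2, Ifi44, Bst2, Oas1a and Ly6a had no probe set under this rule.

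Total RNA came from the lungs of C57BL6 mice in a model of asthma induced with ovalbumin (OVA), an egg white protein used as an allergen. Of 9 arrays, 3 were of lungs labelled as OVA with an agonist of EP3, 3 of lungs labelled as OVA, and 3 of lungs of saline-challenged mice; 24 h stands in the titles of the OVA and OVA + EP3 agonist arrays. EP3 is one of the receptors of prostaglandin E2, and the sources used here do not give the agonist's name, dose or timing, the sensitization scheme, or the mice's age and sex. Whether a group's 3 arrays are separate mice is not in the labels, so p-values measure the spread between these samples, which may be technical.

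Type I interferons (the alpha and beta interferons) bind the IFNAR receptor, and interferon gamma binds the IFNGR receptor; both signal through JAK kinases. Type I interferon gives rise to a complex containing IRF9 that binds the interferon-stimulated response element in promoters, whereas interferon gamma acts through the gamma-activated sequence. The genes switched on in this way encode antiviral proteins, GTPases that act on vacuoles holding microbes, further transcription factors, and inhibitors such as SOCS1 and USP18 that shut the signal off. In lung, macrophages, dendritic cells, epithelium and endothelium all respond to interferon.

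Promoter windows of 300 bases, from 250 before to 50 after an annotated transcript start, were taken from RefSeq (build GRCm38.p6) for 24 of the 31 measured genes. The core of the interferon-stimulated response element was searched on both strands as GAAA, any 2 bases and GAAA again, and the gamma-activated sequence as TTCNNNGAA, which reads the same on both strands. At least 1 response element core was found in 12 of the 24 genes (50%), against 1079 of 27025 genes in the whole table (3.99%). The gamma-activated sequence was found in 41.7% of the 24 genes, against 9.55% of all genes, and the 2 motifs overlapped in Ifitm3. The genes were listed because interferon is known to induce most of them, so these shares are a description of the list; a match is not a measured binding site. The stretches below are printed because they hold the matches of genes described in the results; each ends at the base before the start and runs 5′ to 3′ on the gene's strand, and capitals mark the response element core or, for Irf1, the gamma-activated sequence.
Isg15, chr4:156200819-156200918, minus strand: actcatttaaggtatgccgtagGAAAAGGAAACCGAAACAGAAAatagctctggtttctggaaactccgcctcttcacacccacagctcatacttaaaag
Ifit1, chr19:34640769-34640888, plus strand: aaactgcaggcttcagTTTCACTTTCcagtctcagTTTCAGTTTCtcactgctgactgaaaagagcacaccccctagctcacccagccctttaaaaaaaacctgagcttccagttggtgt
Ifit3, chr19:34583359-34583528, plus strand: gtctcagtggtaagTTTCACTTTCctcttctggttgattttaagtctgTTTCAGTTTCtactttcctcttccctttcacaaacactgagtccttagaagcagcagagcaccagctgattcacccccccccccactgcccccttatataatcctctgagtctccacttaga
Gbp2, chr3:142620573-142620662, plus strand: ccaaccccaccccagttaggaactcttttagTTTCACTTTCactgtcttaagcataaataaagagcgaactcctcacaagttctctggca
Igtp, chr11:58199496-58199555, plus strand: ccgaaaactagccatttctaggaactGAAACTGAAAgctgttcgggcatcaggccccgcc
Irgm1, chr11:48871421-48871480, minus strand: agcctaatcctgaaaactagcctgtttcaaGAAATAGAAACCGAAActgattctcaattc
Socs1, chr16:10785537-10785636, minus strand: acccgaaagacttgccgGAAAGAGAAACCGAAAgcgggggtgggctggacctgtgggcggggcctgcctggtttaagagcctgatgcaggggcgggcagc
Irf1, chr11:53769904-53770013, plus strand: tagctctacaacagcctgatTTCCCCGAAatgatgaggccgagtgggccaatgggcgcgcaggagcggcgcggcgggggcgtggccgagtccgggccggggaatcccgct
Isg15 held 3 overlapping cores, Socs1 and Irgm1 held 2 overlapping cores each, and Ifit1 and Ifit3 held 2 separate cores each. Gbp2 and Igtp held 1 core each, and the Igtp stretch also holds a gamma-activated sequence, left in lower case. The cores of Ifit1, Ifit3 and Gbp2 stand as reverse complements. Irf1 held 1 gamma-activated sequence and no response element core. The first core of Isg15 began 78 bases before the start, that of Ifit1 104 bases before it, and that of Ifit3 156 bases before it. Ifi204, Ifi27, Iigp1, Ly6e, Mx1, Mx2 and Usp18 had no window in the table. Several listed genes are neighbours in the genome, with Ifit1, Ifit2 and Ifit3 on chromosome 19 and Ifitm1, Ifitm2 and Ifitm3 side by side on chromosome 7, and 0 protein-coding genes lay between Ifit2 and Ifit3.

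**Figure D1:**
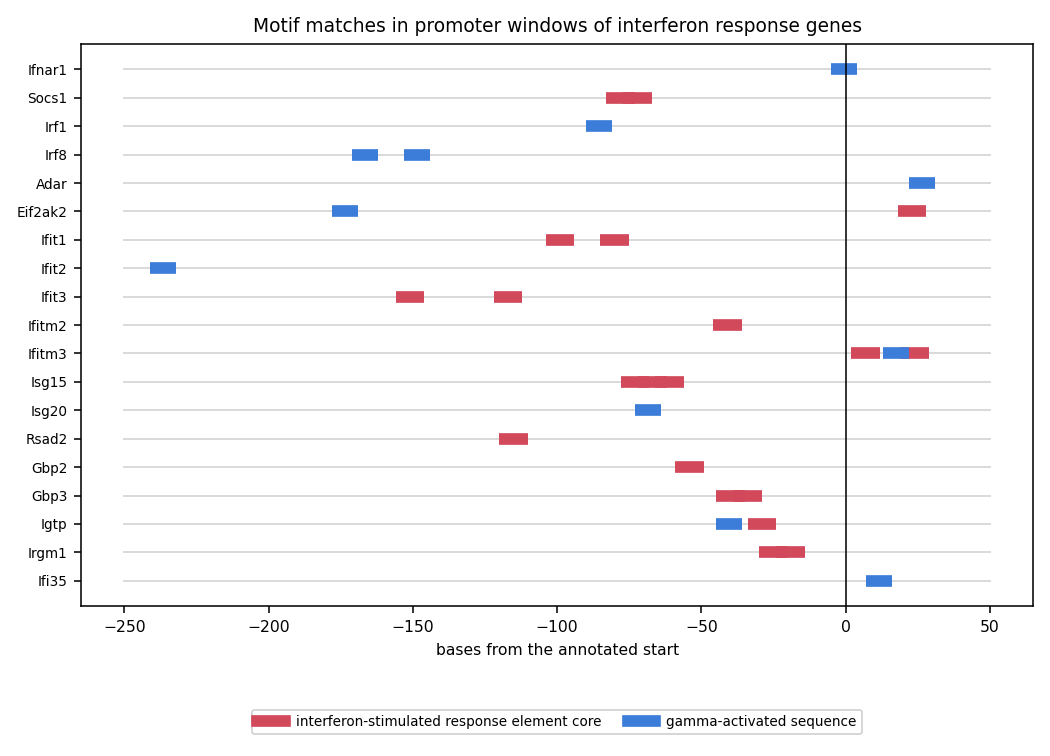
Positions of the 2 motifs in the promoter windows of the measured interferon response genes that hold at least 1 match; the x axis gives bases from the annotated transcript start and each grey line is 1 window. Response element cores (red) lie mostly within 160 bases before the start, and those of Eif2ak2 and Ifitm3 lie after it.

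The arrays were deposited as intensities at unequal overall levels, and scaling factors of 0.741 to 1.29 brought all 9 to a common mean; values below are these scaled intensities. Between 59.6% and 60.5% of probe sets on an array lay above a detection limit of 44.9, the 40th percentile of all scaled values. Across probe sets, which do not count as replicates, 2 arrays of 1 group had a Pearson r of 0.880 to 0.926 and 2 arrays of different groups 0.815 to 0.924. Tests used limma on log2 intensities floored at 3.19, for 7916 probe sets above the detection limit in at least 3 arrays, with Benjamini-Hochberg adjustment over all 7916 and a threshold of 0.05. Of the 37 member probe sets 34 were tested, covering all 31 genes, and 26 were above the limit in all 9 arrays. One of 3 Ifi204 probe sets and 1 of 2 each for Adar and Ly6e were below the limit on every array and untested. Isg15 was above the limit in the 3 OVA arrays only, so it was tested because of the group in which it was high.

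The comparison of OVA with saline asks how allergen challenge changed these genes in the lung. Isg15, Ifit1 and Ifit2 were higher in OVA lungs, and no interferon response gene was lower. Isg15 encodes a ubiquitin-like protein that is attached to other proteins during the interferon response, and the Ifit genes encode proteins that bind foreign RNA. The 3 passing probe sets were 8.82% of the 34 tested, against 9.50% of all tested probe sets called in either direction, 5.08% higher and 4.42% lower. Without Isg15, which was tested through its high group, 2 of 33 passed (6.06%). Either share was near that of the array. With the arrays set to equal medians, 435 of 689 called probe sets of the whole array were higher, against 402 of 752 here.

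Directions were less even than calls. In 28 of 34 member probe sets (82.4%) the OVA mean was higher, against 40% of all tested probe sets. In 12 of them (35.3%) every OVA array was above every saline array, against 15.4% of all, and in 0 every OVA array was below, against 22.1% of all. The median log2 change of the members was 0.29, against -0.09 for all tested probe sets. It was 0.28, 0.22 and 0.36 when arrays with replicate numbers 1, 2 and 3 were set against each other, and between 0.21 and 0.33 when any 1 array was left out. The labels do not say that a number pairs arrays, so the matching by number is arbitrary. At an unadjusted p under 0.05 in limma the members had 12 of 34 (35.3%) and all probe sets 29.0%. The counts of higher means, of groups without overlap and of unadjusted p all include Isg15, which was tested through its high group.

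Whole lung holds many cell types, and in such bulk RNA fewer cells of a type and less RNA per cell cannot be told apart. Of 15 tested macrophage and dendritic cell markers, 8 were higher and 1 lower in OVA than in saline lungs, against 5.08% and 4.42% of all tested probe sets. In OVA + EP3 agonist against OVA lungs 1 was higher, 2 were lower and 12 were not called, against 1.29% higher and 1.55% lower of all. The summed intensity of the list was 16120 to 20160 in OVA + EP3 agonist arrays, 20390 to 21760 in OVA arrays and 14730 to 16270 in saline arrays. Marco and Siglec1 were below the limit on all arrays. The part of these macrophage and dendritic cell markers in the interferon response values was not tested.

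**Figure D2:**
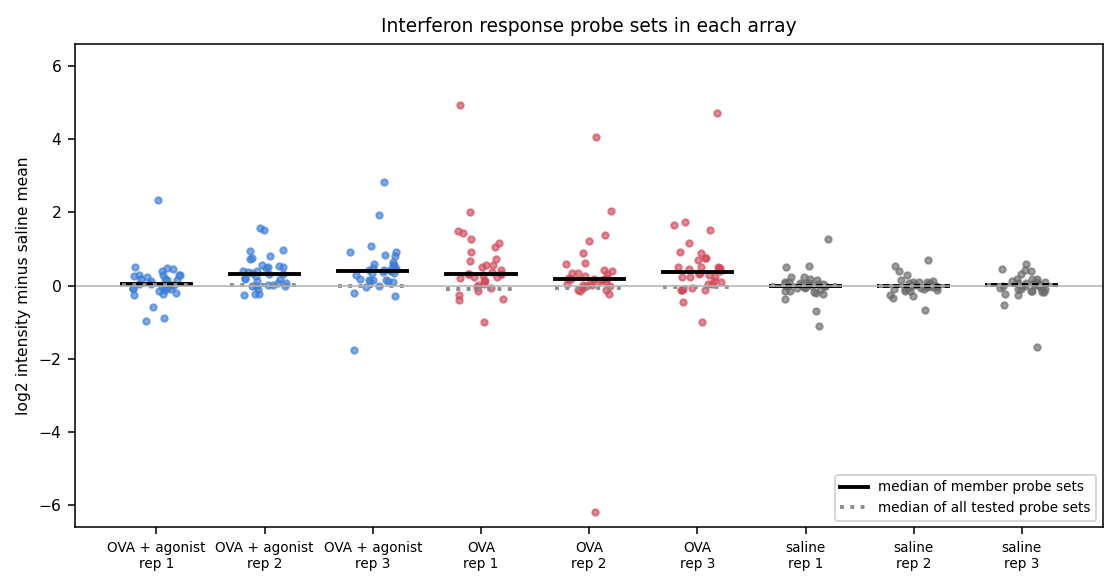
Log2 scaled intensity of each of the 34 tested interferon response probe sets (points) minus that probe set's saline mean, by array; black bars are medians of the members and grey dotted bars medians of all tested probe sets. Member medians of the OVA arrays lie between 0.18 and 0.37, and those of the OVA + EP3 agonist arrays between 0.05 and 0.41.

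Each array was also placed against the saline mean of each probe set. The member median was 0.05, 0.31 and 0.41 (log2) in OVA + EP3 agonist arrays 1, 2 and 3, with 20, 28 and 29 of 34 probe sets above the saline mean. It was 0.32, 0.18 and 0.37 in OVA arrays 1, 2 and 3, with 27, 26 and 27 above. The OVA + EP3 agonist arrays were therefore uneven, with replicate 1 below all 3 OVA arrays and replicate 3 above them.

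Among the antiviral effectors, 13 of 16 listed genes were measured and the 3 calls fell here. Isg15 had scaled intensities of 97.1, 52.9 and 83.8 in OVA lungs, against 0.26, -36.9 and -54.0 in saline lungs. All OVA arrays were above the detection limit and all saline arrays below it, where values carry no order, so Isg15 was at least 1.68-fold higher in OVA lungs (adjusted p = 0.0126, limma; log2 change 4.57, SE 0.66, which depends on the floor that all saline values sat at). With no filter, when all 12422 probe sets were tested, its adjusted p was 0.0253. Its OVA mean was 77.9 ± 22.7 and its saline mean -30.2 ± 27.7 (SD, n = 3 arrays each). Without any 1 of the OVA arrays Isg15 no longer had 3 arrays above the limit and could not be tested.

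Ifit1 had 160.1, 148.6 and 187.6 in OVA lungs, against 57.4, 59.7 and 53.0 in saline lungs. The groups did not overlap, and the lowest OVA value was well clear of the highest saline value. Ifit1 was 2.91-fold higher (log2 1.54, SE 0.28, adjusted p = 0.0225, limma). Ifit2 had 60.7, 63.0 and 77.4 in OVA lungs and 42.5, 39.1 and 42.2 in saline lungs, where all arrays were below the limit. It was at least 1.49-fold higher in OVA lungs (log2 0.69, SE 0.15, adjusted p = 0.0334, limma).

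The Ifit1 and Ifit2 calls were lost without most of the OVA and saline arrays. Ifit1 missed the threshold without OVA replicate 1 (adjusted p = 0.0819, limma) or 2 (0.0681), and without saline replicate 1 (0.0634), 2 (0.0671) or 3 (0.0731). Ifit2 missed it without OVA replicate 1 (0.0874), 2 (0.0785) or 3 (0.0671), and without saline replicate 1 (0.0779), 2 (0.10) or 3 (0.0881). The count of 3 became 0 without OVA replicate 1, 1 without OVA replicate 2 or 3 or any saline array, and 4 without OVA + EP3 agonist replicate 1 or 3.

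Ifit3, the third gene of that cluster, overlapped between groups. It had 135.1, 107.5 and 162.6 in OVA lungs and 113.0, 90.4 and 85.5 in saline lungs (log2 0.48, SE 0.20, adjusted p = 0.163, limma). Ifitm1, which encodes a membrane protein that hinders virus entry, had 1030, 1153 and 794.4 in OVA lungs and 767.8, 706.8 and 829.5 in saline lungs (log2 0.36, adjusted p = 0.198, limma). OVA replicate 3 lay within the saline range for Ifitm1.

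The other effectors gave smaller differences. Rsad2, which encodes viperin, had 71.5, 74.0 and 80.5 in OVA lungs and 64.5, 69.7 and 60.7 in saline lungs, without overlap (log2 0.21, adjusted p = 0.172, limma). For Ifitm3 the log2 change was 0.12 with a 95% interval from -0.11 to 0.35. Mx2, which encodes a dynamin-like GTPase, had the lowest log2 change of the effectors, at -0.28 (adjusted p = 0.361, limma). Ifitm2, Isg20, Mx1, Eif2ak2 and Adar lay between -0.07 and 0.21.

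**Figure D3:**
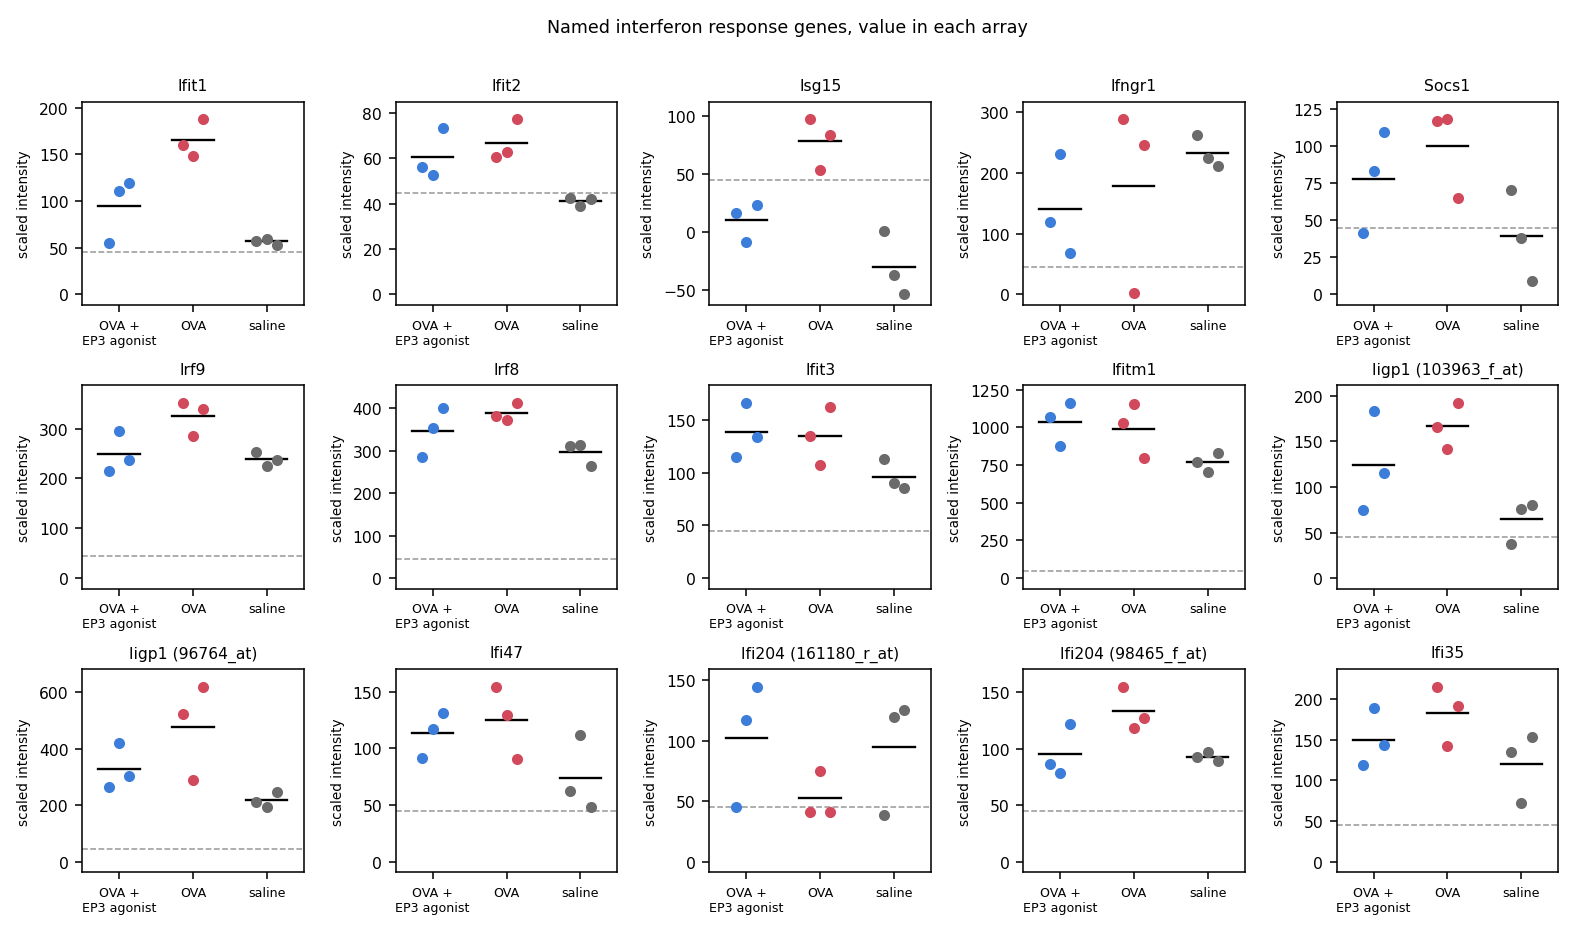
Scaled intensity on a linear axis for the tested probe sets of Isg15, Ifit1, Ifit2 and the other members named for the largest changes of their role, by group; each point is 1 array, the black bar is the mean of 3 arrays and the dashed line is the detection limit of 44.9. Isg15 is above the limit in the OVA arrays only, and Ifit1 is highest in the OVA arrays.

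The interferon-inducible GTPases had the most regular differences, and none passed the threshold. They act in cell-autonomous defence against bacteria and parasites. All 7 tested probe sets of 6 genes had a higher mean in OVA lungs (median log2 change 0.53), against 40% of all tested probe sets. In 5 of 7 (71.4%) the groups did not overlap, against 15.4% of all. An unadjusted p under 0.05 in limma was found for 4 (57.1%), against 29% of all. Called were 0 of 7, against 5.08% of all called higher. Iigp1, whose protein breaks down vacuoles holding parasites, was measured by 2 probe sets. The first (identifier ending in _f_at) had 166.0, 141.7 and 192.3 in OVA lungs and 37.7, 75.6 and 80.8 in saline lungs (log2 1.43, adjusted p = 0.0586, limma). The second had 523.0, 288.5 and 619.4 in OVA lungs and 213.3, 194.2 and 246.8 in saline lungs (log2 1.06, adjusted p = 0.0628, limma).

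Both Iigp1 probe sets separated the groups on every array, and both lay just outside the threshold. The first passed without OVA + EP3 agonist replicate 1 (adjusted p = 0.0472, limma) and the second without OVA replicate 2 (0.0441). Without any other single array they did not pass (adjusted p up to 0.15 for the first and 0.18 for the second, limma). Ifi47 had 154.5, 129.4 and 91.0 in OVA lungs and 62.1, 112.2 and 48.3 in saline lungs (log2 0.81, adjusted p = 0.154, limma), with overlap through saline replicate 2. Gbp2 had 470.6, 344.4 and 486.2 in OVA lungs and 283.3, 297.9 and 311.2 in saline lungs, without overlap (log2 0.53, adjusted p = 0.0891, limma). Gbp3, Igtp and Irgm1 had log2 changes between 0.26 and 0.40.

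Of the transcription factors, Irf9 and Irf8 separated the groups without passing the threshold. Irf9, a DNA-binding subunit of the complex that type I interferon activates, had 351.7, 284.3 and 338.9 in OVA lungs and 252.8, 226.0 and 237.1 in saline lungs (log2 0.44, adjusted p = 0.0859, limma). Irf8, a factor needed for monocyte and dendritic cell development, had 382.9, 373.7 and 413.0 in OVA lungs and 312.5, 314.7 and 263.5 in saline lungs (log2 0.40, adjusted p = 0.112, limma). Irf1, a primary target of interferon gamma with the gamma-activated sequence printed above, had 724.5, 802.0 and 943.6 in OVA lungs and 784.7, 793.6 and 810.9 in saline lungs. The saline values of Irf1 lay inside the OVA range, and its log2 change of 0.04 had a 95% interval from -0.23 to 0.31. The 2 probe sets of Irf7, which amplifies type I interferon production, differed in sign, at -0.22 for the one whose identifier ends in _f_at and 0.18 for the other.

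The receptors and feedback inhibitors had no call among 4 genes. Socs1, an inhibitor of JAK kinases, had 116.5, 118.1 and 65 in OVA lungs and 70.6, 38.0 and 9.10 in saline lungs (log2 1.73, 95% interval from 0.03 to 3.43, adjusted p = 0.165, limma). The groups overlapped, and saline replicates 2 and 3 were below the detection limit, where values carry no order. With values under the limit held at it, the log2 change of Socs1 was 0.88. Ifngr1, the ligand-binding chain of the interferon gamma receptor, had 288.0, 2.48 and 246.3 in OVA lungs and 262.6, 224.9 and 211.5 in saline lungs. OVA replicate 2 stood apart for this gene, and its value was under the floor. The log2 change was -1.93 with it (adjusted p = 0.451, limma) and 0.20 without it (0.815). Ifnar1, a chain of the type I receptor, had a log2 change of 0.56 (adjusted p = 0.234, limma), and Usp18, a protease that removes ISG15 and blocks IFNAR signalling, 0.03 (0.926).

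Among the remaining inducible genes, the 2 tested probe sets of Ifi204, a DNA sensor of the p200 family, went opposite ways. The first (identifier ending in _f_at) had 154.7, 118.3 and 126.8 in OVA lungs and 92.6, 97.2 and 88.9 in saline lungs, without overlap (log2 0.51, adjusted p = 0.104, limma); without OVA + EP3 agonist replicate 3 it passed (0.0416). The second (ending in _r_at) had 41.4, 74.7 and 41.5 in OVA lungs and 38.4, 119.3 and 125.2 in saline lungs (log2 -0.72, adjusted p = 0.451, limma). Ifi35 had 214.8, 141.9 and 191.2 in OVA lungs and 135.1, 71.6 and 153.2 in saline lungs (log2 0.66, adjusted p = 0.210, limma), with overlap. Ly6e had a log2 change of -0.03 with a 95% interval from -0.24 to 0.19, and Ifi27 had 0.13.

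The changes were also read by promoter motif. The 12 probe sets of genes with a response element core all had a higher OVA mean (median log2 change 0.37, 2 called). Isg15, which was tested through its high group, is among the 12 and gave 1 of these 2 calls. In 10 of the 13 probe sets of genes whose window held none the OVA mean was higher (median 0.36, 1 called). The called gene in the second set was Ifit2, whose window held a gamma-activated sequence 241 bases before the start. Of 9 probe sets of genes with no window, 6 had a higher OVA mean (median 0.13, 0 called). Over all tested probe sets 40% had a higher OVA mean and 5.08% were called higher. These are counts beside each other, with no test between them.

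**Figure D4:**
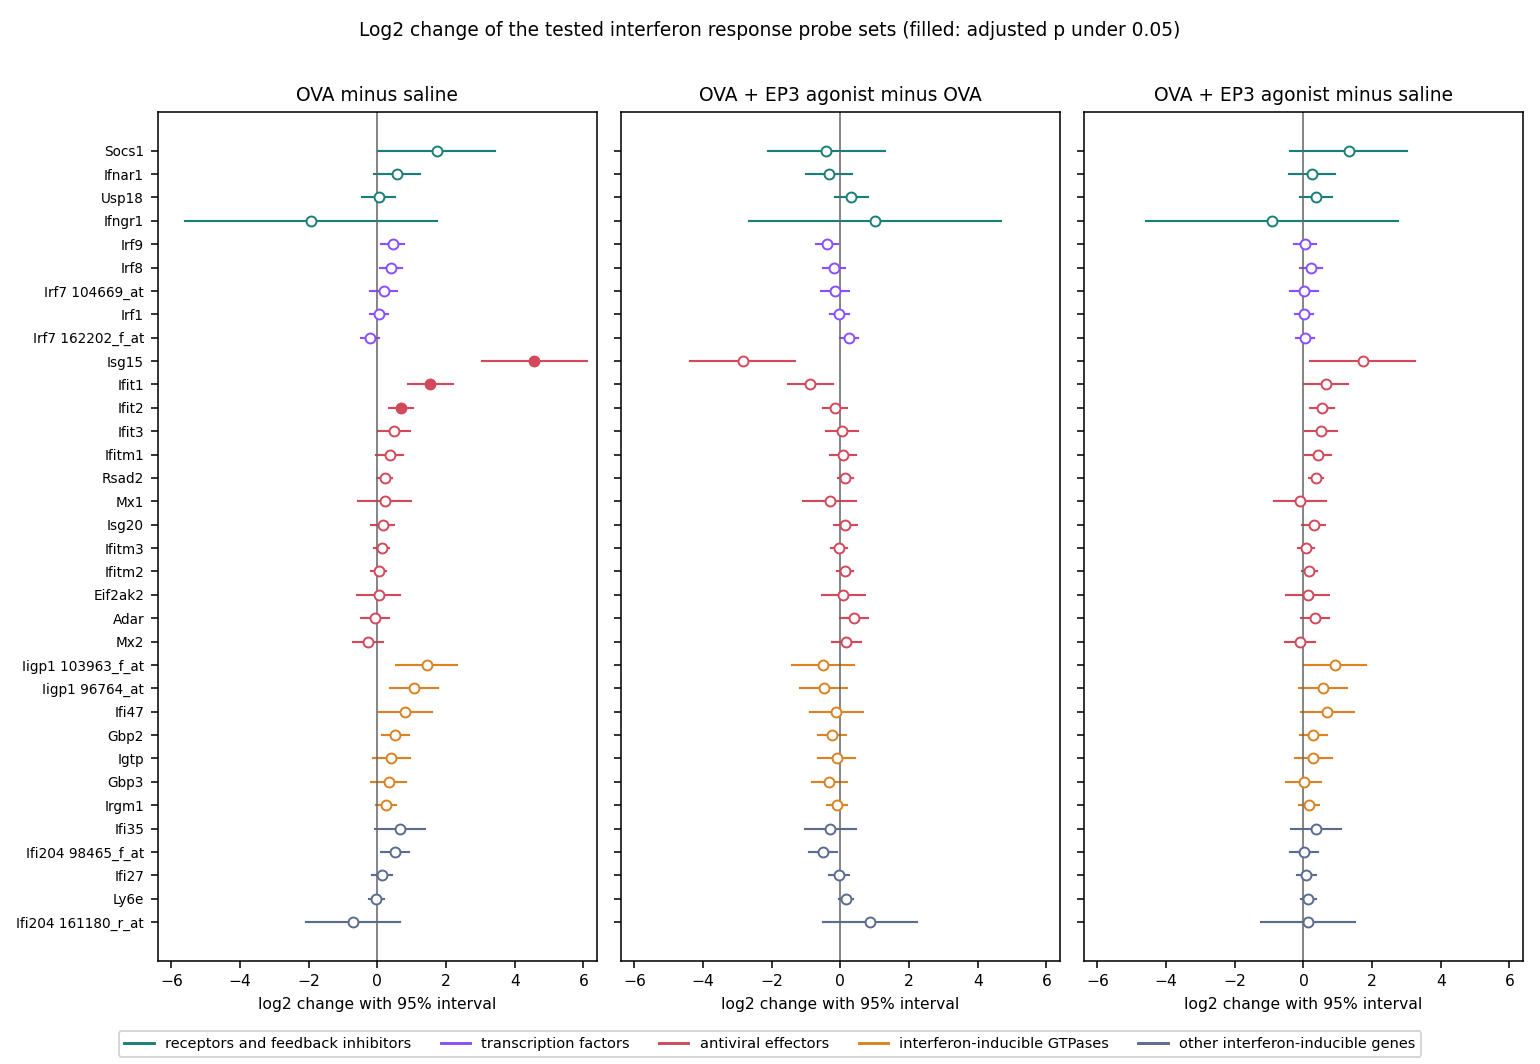
Log2 change of each of the 34 tested interferon response probe sets with its 95% interval from limma, for OVA minus saline, OVA + EP3 agonist minus OVA and OVA + EP3 agonist minus saline; colours give the role of the gene and filled points passed an adjusted p of 0.05. Isg15, Ifit1 and Ifit2 are filled for OVA minus saline, and no point is filled in the other panels.

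The comparison of OVA + EP3 agonist with OVA asks whether the agonist altered these genes in challenged lungs. No interferon response probe set passed: 0 of 34 were called by limma, against 2.84% of all tested probe sets (1.29% higher and 1.55% lower), and 4 of 34 (11.8%) had an unadjusted p under 0.05, against 24.3% of all. The mean was higher in OVA + EP3 agonist lungs for 13 of 34 (38.2%), against 58.2% of all. The median log2 change was -0.10, against 0.06 for all tested probe sets, and between -0.16 and -0.01 when any 1 array was left out. The comparison shares its OVA arrays with the first, and an array that is high in OVA moves both. Isg15, tested through its high OVA group, is among the 4 with an unadjusted p under 0.05 in limma.

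Isg15 and Ifit1 were the member probe sets in which every OVA + EP3 agonist array was below every OVA array (5.88% of 34, against 12.0% of all). Isg15 was tested only through its OVA arrays, so its place in this count was not independent of the filter. Isg15 had 15.99, -8.65 and 22.7 in OVA + EP3 agonist lungs, all below the detection limit, against 97.1, 52.9 and 83.8 in OVA lungs. The values put Isg15 at least 1.68-fold lower in OVA + EP3 agonist lungs (adjusted p = 0.0634, limma), and the difference did not pass. It passed without OVA + EP3 agonist replicate 2 (adjusted p = 0.0498, limma) or 3 (0.0304), and was further from the threshold with no filter (0.101).

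Ifit1 had 54.5, 111.0 and 119.0 in OVA + EP3 agonist lungs and 160.1, 148.6 and 187.6 in OVA lungs (log2 -0.88, SE 0.28, adjusted p = 0.113, limma). OVA + EP3 agonist replicate 1 lay in the saline range of Ifit1 and the other 2 between the groups. Ifit2 did not follow it, with 56.1, 52.7 and 73.4 in OVA + EP3 agonist lungs and 60.7, 63.0 and 77.4 in OVA lungs (log2 -0.15, 95% interval from -0.50 to 0.20). Ifit3 had 114.4, 166.1 and 133.7 in OVA + EP3 agonist lungs and 135.1, 107.5 and 162.6 in OVA lungs (log2 0.04, 95% interval from -0.43 to 0.50). Ifitm1 had 1072, 876.2 and 1163 in OVA + EP3 agonist lungs, and its log2 change was 0.07.

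All 7 GTPase probe sets had a lower mean in OVA + EP3 agonist lungs, between -0.51 and -0.10 (log2), and 0 of 7 separated the groups. Over all tested probe sets, 12% were lower and 17.9% higher without overlap, and 58.2% had a higher mean. The first Iigp1 probe set had 74.7, 183.3 and 115.5 in OVA + EP3 agonist lungs (log2 -0.51, adjusted p = 0.459, limma) and the second 264.6, 419.3 and 302.8 (log2 -0.49, adjusted p = 0.348). OVA + EP3 agonist replicate 2 was the highest of its group for both and lay within the OVA range. Ifi47 had 91.6, 116.9 and 131.5 in OVA + EP3 agonist lungs, a log2 change of -0.12.

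Irf9 had 214.9, 294.5 and 237.4 in OVA + EP3 agonist lungs (log2 -0.39, adjusted p = 0.145, limma), with replicate 2 inside the OVA range. Irf8 had 284.6, 353.0 and 400.8 (log2 -0.18). The first Ifi204 probe set had 86.0, 78.5 and 121.4 (log2 -0.50, adjusted p = 0.142, limma), and passed without OVA + EP3 agonist replicate 3 (0.0349); the second had 45.1, 117.3 and 144.4 (log2 0.86). Ifi35 had 118.3, 188.1 and 143.4 (log2 -0.29).

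Socs1 had 41.3, 83.2 and 109.7 in OVA + EP3 agonist lungs (log2 -0.42, 95% interval from -2.11 to 1.28). Ifngr1 had 119.4, 230.7 and 68.6, and its log2 change was 1.02 with OVA replicate 2 (adjusted p = 0.732, limma) and -1.11 without it (0.237). The probe sets in which every OVA + EP3 agonist array was above every OVA array (5.88% of 34, against 17.9% of all) were those of Ly6e, with 6712, 6342 and 6833 in OVA + EP3 agonist lungs and 5872, 6259 and 5603 in OVA lungs, and the Irf7 probe set ending in _f_at. Their log2 changes were 0.17 and 0.25 (adjusted p = 0.312 and 0.227, limma).

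Set against saline, OVA + EP3 agonist lungs had no called interferon response gene either. With limma 0 of 34 probe sets were called, against 0.0758% of all (0.0379% higher and 0.0379% lower), and 7 of 34 had an unadjusted p under 0.05 (20.6%, against 7.73% of all). The mean was higher in OVA + EP3 agonist lungs for 31 of 34 (91.2%, against 49.3%), and without overlap for 10 (29.4%, against 6.66%); in 0 was it lower without overlap, against 7.04% of all, and the median log2 change was 0.22, against -0.0026 for all. Without overlap were Ifit2, Ifit3, Rsad2, Ifitm1, Ifitm2, Ifitm3, Isg20, Adar, Gbp2 and 1 of 2 Iigp1 probe sets. The counts of higher means and of unadjusted p include Isg15. All of its arrays in this comparison were below the detection limit, where values carry no order.

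Rsad2 had the lowest adjusted p, with 78.7, 83.9 and 87.5 in OVA + EP3 agonist lungs and 64.5, 69.7 and 60.7 in saline lungs (log2 0.36, adjusted p = 0.410, limma). For Ifit2 the OVA + EP3 agonist arrays were all above the detection limit and the saline arrays all below it, at least 1.34-fold higher (adjusted p = 0.431, limma), and not called. Ifit3 had a log2 change of 0.51 (adjusted p = 0.604, limma), and Irf1 0.01. Isg15 was below the limit in both groups, so no fold or order is given.

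Pathway genes outside the list were read the same way. Of 64 such genes, 38 were on the array and 32 were tested; the list was drawn up with earlier results of these data known. In OVA against saline 7 were higher (7 of 37 probe sets, 18.9%, against 5.08% of all tested), 0 lower (against 4.42%) and 25 did not pass. Without Irf4, which was above the limit in the 3 OVA arrays only and so was tested through its high group, 6 of 36 probe sets were called (16.7%). Cxcl9, described below and still in that count, was above the limit in the OVA arrays and OVA + EP3 agonist replicate 3 only. It too was tested through its high group. In OVA + EP3 agonist against OVA 0 were higher, 2 lower (2 of 37 probe sets, 5.41%, against 1.55%) and 30 did not pass, and in OVA + EP3 agonist against saline limma called 0 of 32, with 3 at an unadjusted p under 0.05.

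The called genes with the largest change in OVA lungs were an interferon gamma chemokine, 2 interferon regulatory factors, 2 immunoproteasome subunits and a lysosomal enzyme. Cxcl9, a chemokine that draws T cells, had 53.8, 46.7 and 159.7 in OVA lungs and 2.83, -9.67 and -9.10 in saline lungs, at least 1.64-fold higher (adjusted p = 0.0455, limma). Irf4, a factor of lymphocytes and alternatively activated macrophages, had 195.6, 149.7 and 71.0 in OVA lungs and -3.27, -2.23 and 26.7 in saline lungs, at least 2.85-fold higher (adjusted p = 0.0369, limma). In both genes all saline arrays were below the detection limit, and neither passed with no filter (adjusted p = 0.0862 for Cxcl9 and 0.0685 for Irf4, limma). Cxcl9 had an adjusted p of 0.278 with the floor at the 40th percentile.

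Irf5, a factor that drives inflammatory genes in macrophages, had 214.2, 218.1 and 205.5 in OVA lungs and 114.4, 114.8 and 110.3 in saline lungs (1.88-fold, adjusted p = 0.0172, limma). Ifi30, a thiol reductase of lysosomes used in antigen processing, had 575.5, 486.3 and 387.4 in OVA lungs and 174.7, 171.0 and 193.2 in saline lungs (2.66-fold, adjusted p = 0.0113, limma). Psmb9 had 243.3, 153.1 and 244.9 in OVA lungs and 111.8, 71.9 and 43.0 in saline lungs (2.98-fold, adjusted p = 0.0347, limma), and Psmb8 had 976.2, 891.4 and 927.5 in OVA lungs and 562.3, 624.2 and 573.5 in saline lungs (1.59-fold, adjusted p = 0.0134, limma). Each of these 4 separated the groups on every array. With any 1 array left out, the adjusted p of Ifi30 stayed under the threshold (at most 0.0468). Psmb8 lost its call without OVA replicate 1 or saline replicate 1 or 3 (up to 0.0632), and Irf5 without OVA replicate 1 or 2 or any saline array (up to 0.0691). Psmb9 lost it without OVA + EP3 agonist replicate 2, any OVA array or saline replicate 2 or 3 (up to 0.119), and Cxcl9 without OVA + EP3 agonist replicate 2 or any OVA or saline array (up to 0.119). Irf4 lost it without OVA + EP3 agonist replicate 2 or saline replicate 1 or 2 (up to 0.108) and could not be tested without any 1 OVA array.

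Ifi30 and Psmb8 were also the pathway genes lower in OVA + EP3 agonist lungs than in OVA lungs. Ifi30 had 222, 200 and 300.5 in OVA + EP3 agonist lungs, against 575.5, 486.3 and 387.4 in OVA lungs (2.01-fold lower, adjusted p = 0.0442, limma). Psmb8 had 621.3, 592.6 and 713.6 in OVA + EP3 agonist lungs, against 976.2, 891.4 and 927.5 in OVA lungs (1.45-fold lower, adjusted p = 0.0419, limma). Both calls were lost when only the 6 arrays compared were fitted (adjusted p = 0.132 for Ifi30 and 0.121 for Psmb8, limma) and without most single arrays: Ifi30 reached an adjusted p of 0.146 without OVA replicate 1 and kept its call without OVA + EP3 agonist replicate 3 (0.0153) or OVA replicate 3 (0.0484), and Psmb8 reached 0.146 without OVA replicate 1 and kept its call without OVA + EP3 agonist replicate 3 (0.0174).

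Irf5 had 110.1, 121.9 and 165.8 in OVA + EP3 agonist lungs, below all OVA arrays (log2 -0.70, adjusted p = 0.0510, limma), and passed without OVA + EP3 agonist replicate 3 (0.00417) and under 6 other settings (0.0317 to 0.0486), among them both other scalings. It thus passed in 7 of 18 alternatives. In the others it did not pass, with an adjusted p of up to 0.173 (limma, without OVA replicate 1). Irf4 had -20.1, 6.10 and 19.98 in OVA + EP3 agonist lungs, all below the limit (adjusted p = 0.0659, limma; 0.107 with no filter). Cxcl9 had 1.40, -2.65 and 64.1 in OVA + EP3 agonist lungs, with replicate 3 inside the OVA range (adjusted p = 0.149, limma, and 0.00491 without replicate 3), and Psmb9 had 120.1, 148.5 and 162.7. The transcripts of Ifng and Ifnb1, named here after their values were seen, were below the detection limit on all 9 arrays.

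**Figure D5:**
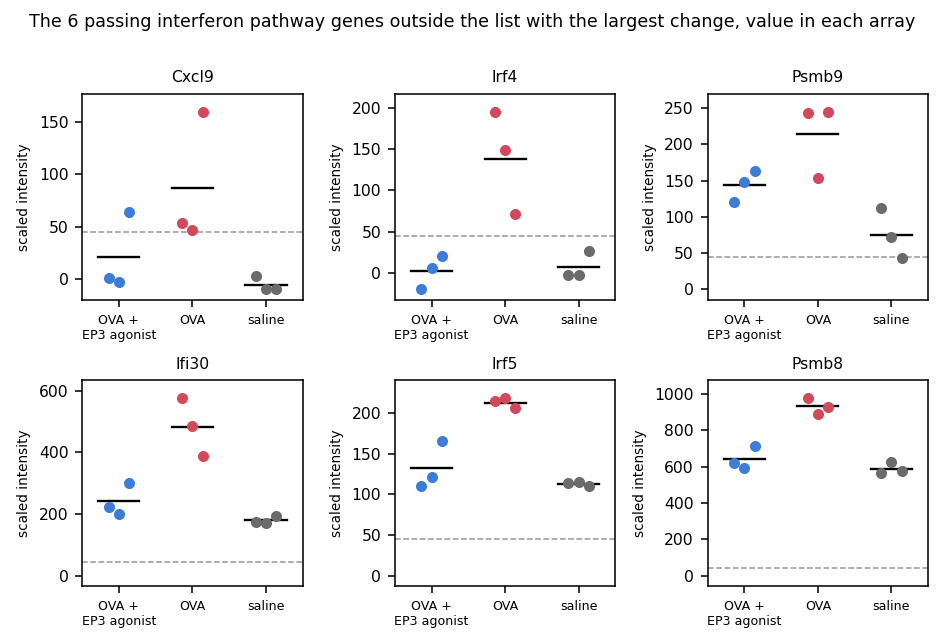
Scaled intensity on a linear axis of the 6 interferon pathway genes outside the list with the largest change among those called in OVA against saline lungs, by group; each point is 1 array, the black bar is the mean of 3 arrays and the dashed line is the detection limit of 44.9. Irf5, Ifi30, Psmb8 and Irf4 are higher in all OVA arrays than in the OVA + EP3 agonist and saline arrays.

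Eosinophil markers summed to 93.6 to 145.7 in OVA + EP3 agonist arrays, 299.5 to 513.8 in OVA arrays and 95.4 to 133.6 in saline arrays. Ccr3, Epx, Il5ra, Prg2 and Prg3 were below the limit on all arrays. Of 2 tested eosinophil markers 1 was higher in OVA than in saline lungs, against 5.08% of all tested probe sets. In OVA + EP3 agonist against OVA lungs 1 of the 2 was lower and 0 were higher, against 1.55% and 1.29% of all. Markers of plasmacytoid dendritic cells, a main source of type I interferon, had 0 of 3 genes called in OVA against saline by limma (1 at an unadjusted p under 0.05), and summed to 1135 to 1208 in OVA + EP3 agonist arrays, 959.7 to 1223 in OVA arrays and 905.1 to 1265 in saline arrays.

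T and NK cell markers had 0 of 8 genes called in OVA against saline by limma (0 at an unadjusted p under 0.05). They summed to 773.2 to 980.8 in OVA + EP3 agonist arrays, 700.3 to 845.8 in OVA arrays and 727.4 to 867.1 in saline arrays, with Cd3e, Cd3g, Cd5, Cd8a, Cd8b1 and Ncr1 below the limit throughout. B cell markers had 1 of 6 genes higher in OVA lungs, counted by the brightest tested probe set of each gene. Counted by probe set, 6 of 17 were higher in OVA against saline. In OVA + EP3 agonist against OVA 1 of 17 was lower and 0 were higher, against 1.55% and 1.29% of all tested probe sets. B cell sums were 2003 to 7119 in OVA + EP3 agonist, 4893 to 11320 in OVA and 2493 to 3024 in saline arrays, with Cd22 and Cr2 below the limit. Neutrophil markers had 1 of 8 higher in OVA lungs and summed to 2070 to 6370 in OVA + EP3 agonist arrays, 3298 to 4365 in OVA arrays and 1833 to 1934 in saline arrays, with Ly6g and Ngp below the limit. Of all tested probe sets, 5.08% were called higher in OVA against saline.

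Several tissue markers were lower in OVA than in saline lungs, where 4.42% of all tested probe sets were called lower. Endothelial markers had 7 of 12 lower, and summed to 16180 to 17260 in OVA + EP3 agonist arrays, 12430 to 13560 in OVA arrays and 16390 to 16950 in saline arrays. Lung epithelial markers, all detected, had 3 of 8 lower, and summed to 37950 to 38460 in OVA + EP3 agonist arrays, 27270 to 33800 in OVA arrays and 34640 to 41580 in saline arrays. Heart muscle markers had 5 of 9 lower, and summed to 4512 to 5232 in OVA + EP3 agonist arrays, 3412 to 4199 in OVA arrays and 4514 to 5528 in saline arrays. In OVA + EP3 agonist against OVA lungs 3 of 12 endothelial, 1 of 8 epithelial and 1 of 9 heart muscle markers were higher. In each list 0 were lower, and of all tested probe sets 1.29% were called higher. The part of these marker shifts in the interferon response values was not tested.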

How the data were processed

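The values used were probe set intensities on a linear scale, deposited by the authors for 9 Affymetrix arrays, with 16.3% to 18.7% of values at or below 0 on each array. No scanner software, summarization or scale constant is named in the labels. Symbols came from the platform's probe table: of 12422 probe sets that are not controls (66 controls were left out), 10833 had 1 symbol, 396 several and 1193 none; 10817 were found in a RefSeq gene table (GRCm38.p6).

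Arrays were scaled to the mean of their 9 2% trimmed means, floored at the 20th percentile of all scaled values, 3.19, and put on the log2 scale. Probe sets above the 40th percentile in at least 3 of 9 arrays were kept (7916, for 5949 genes). limma 3.58.1 in R 4.3.3 fitted 3 group means to all 9 arrays, with 6 residual degrees of freedom per probe set; tests were two-sided, adjusted by Benjamini-Hochberg over all 7916, and the fit was tested on simulated data. Where one group was wholly below the limit and the other wholly above, the fold is the higher group's mean over the limit, on the log2 scale. The number of arrays limits the precision. The members and all lists were chosen with earlier results of these data known. Array values are given for every called member, for 2 more members of each role with the largest change in OVA against saline, and for all tested probe sets of a gene so named. Values of Irf1, Gbp2, Rsad2 and Ly6e and results of Irf7 were added to that after they were seen. From the pathway genes, up to 6 called genes with the largest change are named per comparison. Counts of pathway and marker genes used 1 tested probe set per gene, the brightest in the groups compared. Alternatives were 2 other scalings, 2 other floors, 2 other filters, a fit of only the 6 arrays compared, a block for the replicate number, 1 mean per gene over its probe sets, and each array left out.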

Additional observations from a re-analysis of the deposited data

Results flagged for a closer look

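Probe sets that carry several gene symbols entered no comparison of the members, and 2 of them showed every OVA array above every saline array. The probe set of Tgtp2 and Tgtp1, GTPases of the interferon-inducible family, had 274.7, 533.2 and 369.4 in OVA + EP3 agonist lungs, 525.0, 412.8 and 587.8 in OVA lungs and 360.8, 375.2 and 307.2 in saline lungs, a log2 change of 0.54 for OVA minus saline (adjusted p = 0.190, limma). The probe set shared by Mndal, Ifi211, Ifi205 and Ifi204, genes of the p200 family, had 213.0, 292.2 and 301.2 in OVA + EP3 agonist lungs, 408.1, 292.4 and 325.2 in OVA lungs and 290.4, 249.2 and 197.2 in saline lungs, a log2 change of 0.48 (adjusted p = 0.166, limma). Neither passed the threshold. The third such probe set, which names Ifi203, had a log2 change of -0.06 (adjusted p = 0.870, limma).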

How the results depend on the processing

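The count of 3 interferon probe sets called in OVA against saline was 5 with the floor at the 40th percentile and 1 (Isg15) with the replicate block, and 0 to 4 over the settings without 1 replicate. Isg15 kept its call in the 14 alternatives that tested it (adjusted p at most 0.0483, limma), 1 of them with no filter (0.0253); the others tested it because all 3 OVA arrays lay above the limit, which says nothing of the settings that dropped it. The count without Isg15, chosen after seeing the data, was 2. Ifit1 (0.0621) and Ifit2 (0.0583) lost their calls under the block, as did Ifi30 (0.0572), Psmb8 (0.0583), Irf5 (0.0615), Cxcl9 (0.0654), Irf4 (0.0717) and Psmb9 (0.0802). The calls of Ifi30 and Psmb8 in OVA + EP3 agonist against OVA were also lost under it (0.116 each). The filter at the 60th percentile removed Isg15 and Ifit2. The 2 probe sets of Iigp1 passed with the floor at the 40th percentile (0.0386 and 0.0486) and the filter at the 60th (0.0382 and 0.0411). In OVA + EP3 agonist against OVA 1 interferon probe set (Isg15) passed with no floor and 16 added to each value. Without 1 replicate 0 to 2 passed. Against saline 0 to 1 passed without 1 replicate. That 1 was Isg15 without OVA + EP3 agonist replicate 2, with all its arrays in both groups below the detection limit. For all probe sets, the calls in OVA against saline were 50 with the replicate block and 80 to 853 without 1 replicate. In OVA + EP3 agonist against OVA they were 361 with the floor at the 40th percentile, 447 with the filter at the 60th, 18 with only the 6 arrays compared, 14 with the block and 7 to 523 without 1 replicate. In OVA + EP3 agonist against saline they were 3 with the filter at the 60th percentile, 2 with the block and 5 to 16 without 1 replicate. The median log2 change of the interferon probe sets in OVA against saline was 0.21 to 0.33 without 1 replicate. The cause of these differences was not tested. Same-numbered arrays deviated together with r between -0.14 and 0.17 over 9 pairs, and 5 of 9 arrays correlated best with their own number. These values do not decide whether a number pairs arrays. The labels do not say that it does, so the main fit did not treat the numbers as pairs. Of 1095 values of named genes under alternatives, 1001 kept their side of the threshold, 68 lost a call and 26 gained one; 23 uncalled values changed sign, and no called value did.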
